A study of Sus scrofa with 15 samples.

Results

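Expression of 10 BCL2 family genes was followed across 3 porcine NK cell populations. The rule for members was a list of gene symbols, drawn up with earlier results of these data known, and all 10 had a row among the 29886 genes of the deposited count file. The populations were CD8αhigh NK cells from blood (Blood NK in the labels, here cNK cells), CD8αhigh NK cells from liver (Conventional liver NK), and CD8αdim NK cells from liver (Liver resident NK, here lrNK cells). Each was sorted by FACS as CD3-CD172a- cells from the same 5 pigs at 6 months of age, which gave 15 bulk libraries read from the 3′ end of transcripts. The labels give no treatment, breed or sex, and the liver cells were those collected in a PBS flush of the liver through the portal vein.

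The BCL2 family decides whether a cell starts the mitochondrial route of apoptosis. Guardians such as BCL2, BCL-XL (*BCL2L1*) and MCL1 hold the effectors BAX and BAK in check at the outer mitochondrial membrane. BH3-only proteins carry a death signal by occupying the groove of the guardians or by activating the effectors, after which cytochrome c leaves the mitochondria and caspases are activated. In NK cells, IL-15 is known to keep cells alive largely through MCL1 and BCL2, and BIM (*BCL2L11*) is the BH3-only protein that this signal holds back.

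In CD8αdim lrNK cells, *MCL1* was 2.10-fold and *PMAIP1*, which encodes the BH3-only protein NOXA, 4.45-fold higher than in cNK cells. The *PMAIP1* groups overlapped, 1 blood library had 0 counts, and its call was lost in 4 of 5 fits that left out a pig. *BBC3*, which encodes PUMA, was 10.6-fold lower and *BCL2L11* 1.87-fold lower. The *BCL2L11* groups overlapped as well, and its call was lost without pig 1 or pig 5. *BCL2*, *BCL2L1*, *BAX*, *BAK1*, *BID* and *BAD* did not pass the test, where 18.2% of all genes tested passed. In liver CD8αhigh NK cells, no member differed from cNK cells at an adjusted p under 0.05, where 0.0640% of all genes tested did. Values behind these statements are given gene by gene below, in CPM (counts scaled to a common library size, with TMM factors). Fold changes and p-values come from edgeR (quasi-likelihood test), with p adjusted by Benjamini-Hochberg (BH) over 10939 genes. These were the genes left after edgeR's filter on low counts, which kept all 10 members.

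Libraries held 2003499 to 5680221 counts, and the 10 members together took between 0.120% and 0.215% of a library. All 11 NK marker genes examined were counted in each population, with summed levels of 4044 to 5402 CPM in blood, 4563 to 5321 CPM in liver CD8αhigh and 4405 to 6833 CPM in lrNK libraries. The 5 B cell markers, among them *MS4A1*, *CD79A*, *CD79B* and *PAX5*, summed to 10.9 to 109 CPM in blood, 0 to 44.2 CPM in liver CD8αhigh and 214 to 685 CPM in lrNK libraries, with *CD79A* at 0 in every library. The plasma cell markers *JCHAIN* and *MZB1* summed to 10.2 to 54.3, 4.06 to 19.5 and 46.9 to 384 CPM. The 5 T cell markers summed to 637 to 1203, 714 to 1076 and 109.9 to 593 CPM, with *CD5* at 0 throughout. Of this, *CD3G* alone gave 629 to 1176, 709.8 to 1064 and 104 to 586 CPM, so the lower sum in lrNK cells was that of 1 gene. The 6 monocyte and macrophage markers summed to at most 25.6 CPM and the 5 endothelial markers to at most 18.5 CPM. The erythroid and platelet markers summed to 304 CPM in blood of pig 4, to at most 6.03 CPM in the other blood libraries and to at most 54.6 CPM in liver libraries. Of the 6 hepatocyte markers, *APOA1*, *SERPINA1* and *APOC3* were at 0 throughout, and the sum was at most 9.74 CPM in any library. The sum of 11 immediate early and heat shock genes was 911 to 1102 CPM in blood, 1523 to 3208 CPM in liver CD8αhigh and 1482 to 2112 CPM in lrNK libraries. The part of these other cells and of handling in the results was not tested, and in bulk RNA fewer cells of a type cannot be told apart from less RNA per cell.

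One library stood apart in this family. The lrNK library of pig 3 was the highest or lowest of the 5 lrNK libraries for all 10 members, highest for *BCL2*, *BCL2L1*, *BAX*, *BCL2L11* and *PMAIP1* and lowest for *MCL1*, *BAK1*, *BID*, *BAD* and *BBC3*. It held such a place for 63.3% of all genes tested, where the other 4 lrNK libraries did so for 27.1% to 41.6%. Its depth of 2012510 counts was close to that of pig 2 (2003499), the shallowest of the lrNK libraries. Among NK markers, *KLRK1* (75.5 CPM), *KLRB1* (193 CPM), *NCR1* (156 CPM) and *TBX21* (80.9 CPM) were lowest there. The other lrNK libraries had 330 to 1168, 1089 to 2316, 248 to 356 and 201 to 246 CPM in that order. *NKG7*, *PRF1*, *CD8A*, *CD247* and *TYROBP* were highest there, and *FCER1G* and *EOMES* were neither. The summed NK marker level does not show these shifts. In blood, no pig was the extreme for more than 7 members, and in liver CD8αhigh NK cells for more than 5. With the pig 3 lrNK library left out, 4 members passed against blood and 3 against liver CD8αhigh NK cells, the same in number as with it. Over all genes, 2301 and 1764 passed without it, against 1993 and 1601 with it.

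**Figure D1:**
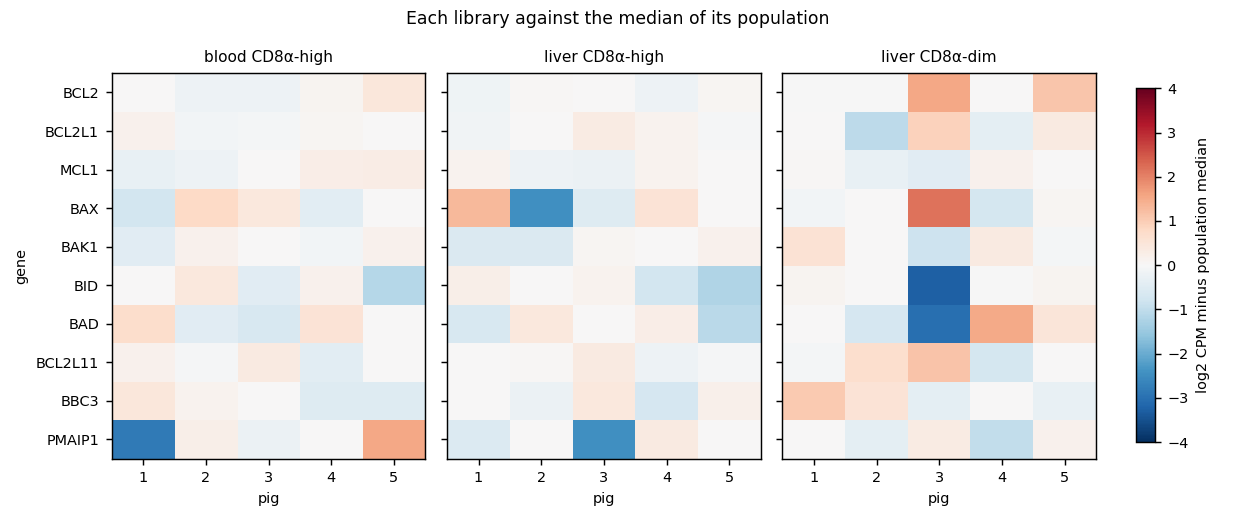
Each library's log2 CPM minus the median of its population (colour, red higher, blue lower) for the 10 genes (rows) and 5 pigs (columns) in the 3 populations. In the liver CD8αdim panel the column of pig 3 carries the strongest colours, with *BAX* and *BCL2* high and *BID* and *BAD* low.

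Levels of different members are set side by side here as counts of 3′ ends, which do not scale with transcript length. How well each gene's 3′ end is annotated and mapped was not tested, and the order of counts may differ from the order of transcript levels. *BCL2*, *MCL1*, *BCL2L11* and *BBC3* together held 90.1% to 94.6% of the summed CPM of the 10 members in every library. The 3′ level of *BCL2* had the highest mean share in cNK cells, with 33.1% ± 4.65 (SD, n = 5) of that sum, followed by *BCL2L11* with 25.1% ± 4.68, *MCL1* with 23.5% ± 3.86 and *BBC3* with 12.3% ± 3.84. Liver CD8αhigh NK cells had a like make-up, 31.4% ± 2.19 for *BCL2*, 26.1% ± 4.28 for *MCL1*, 25.3% ± 2.52 for *BCL2L11* and a range of 7.52% to 14.0% for *BBC3*. In lrNK cells *MCL1* held 43.7% ± 12.4 and *BCL2* 36.0% ± 12.1, whereas *BCL2L11* held 11.3% ± 4.77 and *BBC3* 1.07% ± 0.622. The remaining 6 members held small shares in all populations. The shares of *BCL2* and *BCL2L11* overlapped in cNK cells, 27.7% to 39.2% and 19.1% to 31.2%, and in blood of pig 3 *BCL2L11* was the higher. Those of *BCL2* and *MCL1* overlapped in lrNK cells, so neither order exceeds the spread between pigs.

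**Figure D2:**
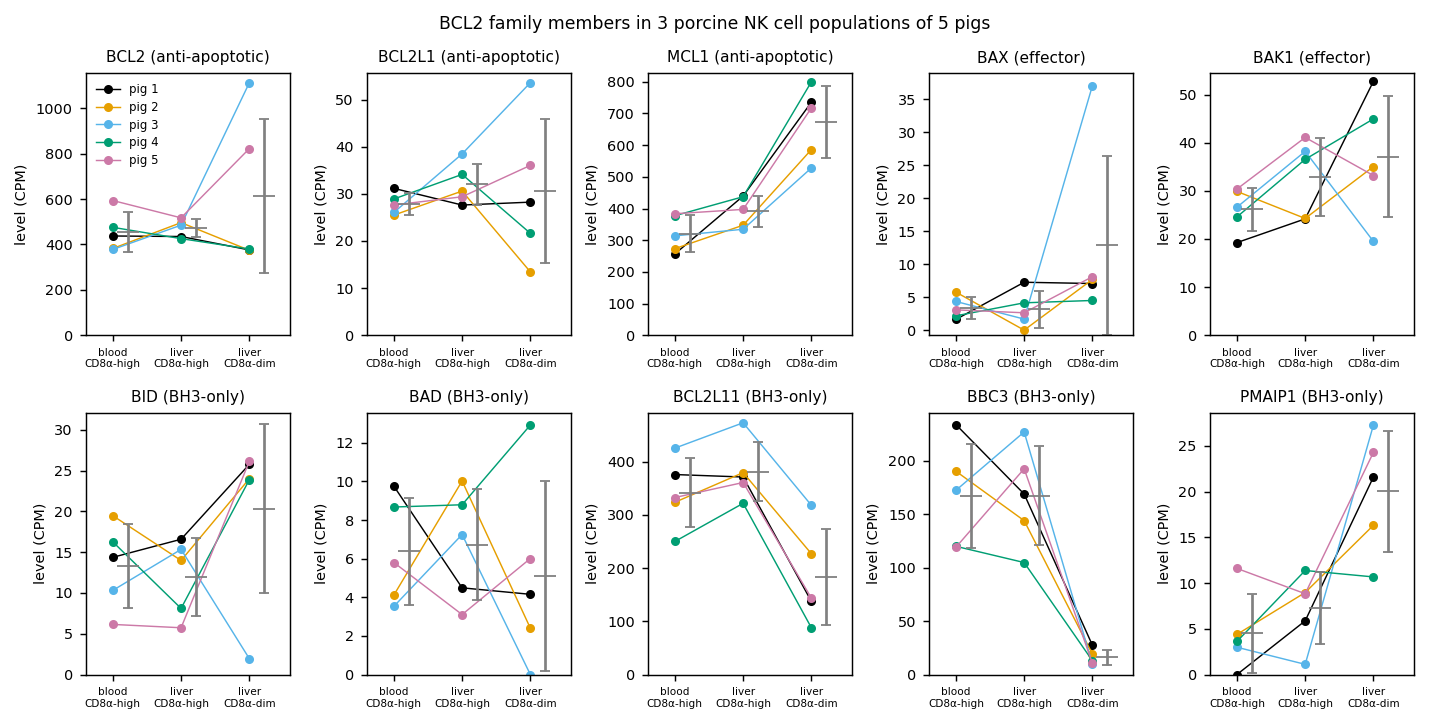
Levels of the 10 genes in CPM (y axis, linear, own scale per gene) in blood CD8αhigh, liver CD8αhigh and liver CD8αdim NK cells. Points are libraries, lines join the libraries of one pig, and grey bars are the mean ± SD over 5 pigs. *BBC3* fell to between 9.74 and 27.4 CPM in the CD8αdim libraries, and *MCL1* was highest there in each pig.

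Among the guardians, *MCL1* separated the populations. MCL1 is a short-lived protein whose gene, here on chromosome 4 from 98562092 to 98567014, answers quickly to cytokines. Its level in blood was 257, 273, 314, 377 and 383 CPM in pigs 1 to 5, in liver CD8αhigh NK cells 439, 347, 335, 437 and 397 CPM, and in lrNK cells 736, 586, 528, 799.8 and 717 CPM. Every lrNK library lay above every library of the other populations, while blood and liver CD8αhigh libraries overlapped. Against blood, lrNK cells gained 1.07 on the log2 scale (SE 0.16, edgeR, BH-adjusted p = 5.01e-05). Against liver CD8αhigh NK cells it was 0.78 (SE 0.16, edgeR, BH-adjusted p = 0.00136). Within pigs, the log2 difference between the liver populations was narrow, from 0.66 to 0.87. Liver CD8αhigh NK cells had more *MCL1* than blood in each of the 5 pigs, by 0.05 to 0.77 on the log2 scale, but the test was not passed (log2 fold change 0.29, 95% interval -0.04 to 0.62, edgeR, BH-adjusted p = 1.00).

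*BCL2*, on chromosome 1 from 158337403 to 158518214 of Sscrofa11.1, encodes the guardian for which the family is named. Its level in blood was 437, 382, 378, 476 and 594 CPM in pigs 1 to 5, and in liver CD8αhigh NK cells 435, 496, 485, 426 and 517 CPM. The lrNK libraries had 376, 374, 1113, 380.0 and 822 CPM. Of the lrNK libraries, 3 therefore sat close to the lowest blood library, and those of pigs 3 and 5 were above the other 13 libraries of the series. The mean of 613 ± 339 CPM (SD, n = 5) in lrNK cells was not distinguishable from 453 ± 88.2 CPM in blood (log2 fold change 0.44, 95% interval -0.10 to 0.97, edgeR, BH-adjusted p = 0.277). Without the lrNK library of pig 3 the log2 fold change was 0.13 (edgeR, BH-adjusted p = 0.737). The B cell marker sum was lowest, among lrNK libraries, in those of pigs 3 and 5, with 214 and 251 CPM against 433 to 685 CPM in the other 3. The plasma cell marker sum did not follow it, with 46.9, 384, 375, 335 and 193 CPM in lrNK libraries of pigs 1 to 5, and the part of either cell type was not tested.

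*BCL2L1*, which encodes BCL-XL, had far fewer 3′ counts than *BCL2* and *MCL1* in these NK cells. It had 25.5 to 31.2 CPM (median 27.6) in blood, 27.6 to 38.5 CPM (median 30.6) in liver CD8αhigh NK cells and 13.4 to 53.6 CPM (median 28.2) in lrNK cells. The groups overlapped, and the spread was widest in lrNK cells, whose highest library was again that of pig 3. Neither liver population differed from blood by the test, with log2 fold changes of 0.13 (95% interval -0.47 to 0.73) in lrNK and 0.20 (95% interval -0.39 to 0.80) in liver CD8αhigh NK cells.

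Both effector genes were counted at low levels. BAX and BAK form the pores in the outer mitochondrial membrane. *BAX*, on chromosome 6 from 54222341 to 54228150, had 6 to 21 counts per blood library, 0 to 24 per liver CD8αhigh library and 16 to 76 per lrNK library. In CPM, blood had 1.63, 5.76, 4.34, 2.17 and 3.07, liver CD8αhigh 7.25, 0, 1.67, 4.14 and 2.63, and lrNK cells 7.06, 7.68, 37.0, 4.49 and 8.10 in pigs 1 to 5. The lrNK level was above blood in all 5 pigs, yet the groups overlapped and one library, that of pig 3, was far above the rest. The log2 fold change of 1.90 (SE 0.79) against blood did not pass (edgeR, BH-adjusted p = 0.108), nor did that of 2.02 (SE 0.80) against liver CD8αhigh NK cells (edgeR, BH-adjusted p = 0.103). DESeq2 gave 2.06 with an adjusted p of 0.0460 for the latter. Leaving out the lrNK library of pig 3 brought the edgeR values to 1.01 (BH-adjusted p = 0.426) and 1.13 (BH-adjusted p = 0.414).

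*BAK1*, which encodes BAK, was the better counted effector. It lies on chromosome 7 from 29808849 to 29815345, wholly inside *LOC102162214*, which had 0 to 3 counts. Blood libraries had 19.2 to 30.4 CPM (median 26.6), liver CD8αhigh libraries 24.2 to 41.1 CPM (median 36.5) and lrNK libraries 19.5 to 52.7 CPM (median 35.0). The 3 ranges overlapped. The log2 fold change of lrNK cells against blood was 0.51 (95% interval -0.06 to 1.07, edgeR, BH-adjusted p = 0.224), with 4 of 5 pigs higher. The lowest lrNK library was that of pig 3, and without it the adjusted p was 0.0542.

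The largest change among the 10 genes was that of *BBC3*. PUMA, its product, binds all guardians, and FOXO3 can induce its gene. *BBC3* lies on chromosome 6 from 53037103 to 53046902, and no other gene in the reference table overlaps it. Blood libraries held 234, 190.2, 172, 120.0 and 119 CPM in pigs 1 to 5, and in liver CD8αhigh NK cells 169, 144, 227, 105 and 193 CPM. In lrNK cells it was 27.4, 19.2, 9.74, 12.9 and 10.4 CPM, from 20 to 66 counts per library. All 5 lrNK libraries were below all 10 others, and the CD8αhigh populations covered the same range. The log2 fold change was -3.40 (SE 0.30) both against blood (edgeR, BH-adjusted p = 4.93e-08) and against liver CD8αhigh NK cells (edgeR, BH-adjusted p = 4.88e-08). Within pigs, the log2 difference from blood ran from -4.06 to -3.07. Between liver CD8αhigh NK cells and blood the estimate was 0.00 with a 95% interval of -0.54 to 0.54 on the log2 scale. The interval is not adjusted for the number of genes tested, so changes of 0.54 or more could have missed the adjusted threshold.

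*BCL2L11*, on chromosome 3 from 45156791 to 45202996, encodes BIM, the BH3-only protein that removes lymphocytes deprived of cytokines. Its level in blood was 376, 324, 425, 250.1 and 333 CPM in pigs 1 to 5, and in liver CD8αhigh NK cells 371, 379, 473, 322 and 361 CPM. In lrNK cells it was 137, 227, 318, 87.9 and 144 CPM. Each lrNK library was below the blood library of its own pig, although the highest, that of pig 3, fell inside the blood range, and all 5 were below every liver CD8αhigh library. The log2 fold change was -0.91 (SE 0.25, edgeR, BH-adjusted p = 0.0135) against blood and -1.06 (SE 0.25, edgeR, BH-adjusted p = 0.00515) against liver CD8αhigh NK cells. The change against blood missed the threshold without pig 1 (log2 fold change -0.78, BH-adjusted p = 0.0903) and without pig 5 (log2 fold change -0.83, edgeR, BH-adjusted p = 0.0807). It was larger without the lrNK library of pig 3 (log2 fold change -1.18, edgeR, BH-adjusted p = 3.54e-04).

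*PMAIP1* moved opposite to *BBC3* and *BCL2L11*. NOXA, its product, binds MCL1 in particular and marks it for degradation. The gene, on chromosome 1 from 161184458 to 161188138, was thinly counted, with 0 to 34 counts per blood library, 4 to 66 per liver CD8αhigh library and 34 to 93 per lrNK library. It stood at 0, 4.39, 2.99, 3.61 and 11.6 CPM in blood, 5.87, 8.97, 1.12, 11.4 and 8.84 CPM in liver CD8αhigh NK cells, and 21.6, 16.3, 27.3, 10.7 and 24.3 CPM in lrNK cells of pigs 1 to 5. The lrNK level was above blood in all 5 pigs, but the lowest lrNK library, that of pig 4, lay below the highest blood library, that of pig 5. The log2 fold change of 2.15 (SE 0.68) against blood passed narrowly (edgeR, BH-adjusted p = 0.0315). It did not pass without pig 1, 2, 3 or 4, with log2 fold changes of 1.80, 2.21, 1.90 and 2.25 and adjusted p-values of 0.0674, 0.0939, 0.0696 and 0.0709 in that order (edgeR, BH). Against liver CD8αhigh NK cells the log2 fold change was 1.45 (SE 0.66, edgeR, BH-adjusted p = 0.169).

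*BID* and *BAD* link other signals to the family, since BID is cut by caspase-8 and granzyme B and BAD is held inactive by phosphorylation under growth factor signals. *BID* had 6.14 to 19.5 CPM (median 14.4) in blood, 5.73 to 16.6 CPM (median 14.0) in liver CD8αhigh NK cells and, in lrNK cells of pigs 1 to 5, 25.7, 24.0, 1.95, 23.9 and 26.1 CPM. The lrNK libraries of pigs 1, 2, 4 and 5 were thus above all libraries of the other populations and that of pig 3, with 4 counts, below all of them. The log2 fold change against blood was 0.62 (SE 0.49, edgeR, BH-adjusted p = 0.443), and 0.92 without that library (edgeR, BH-adjusted p = 0.0812). *BID* shares 11050 bases with *LOC110260761*, which had 0 to 49 counts, and the strand setting of the counting is not given in the sources used here. *BAD* was thinly counted, at 3.53 to 9.76, 3.10 to 10.02 and 0 to 12.9 CPM in blood, liver CD8αhigh and lrNK libraries, and differences of over 2-fold could have gone undetected (log2 fold change of lrNK cells against blood -0.29, 95% interval -1.76 to 1.19).

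**Figure D3:**
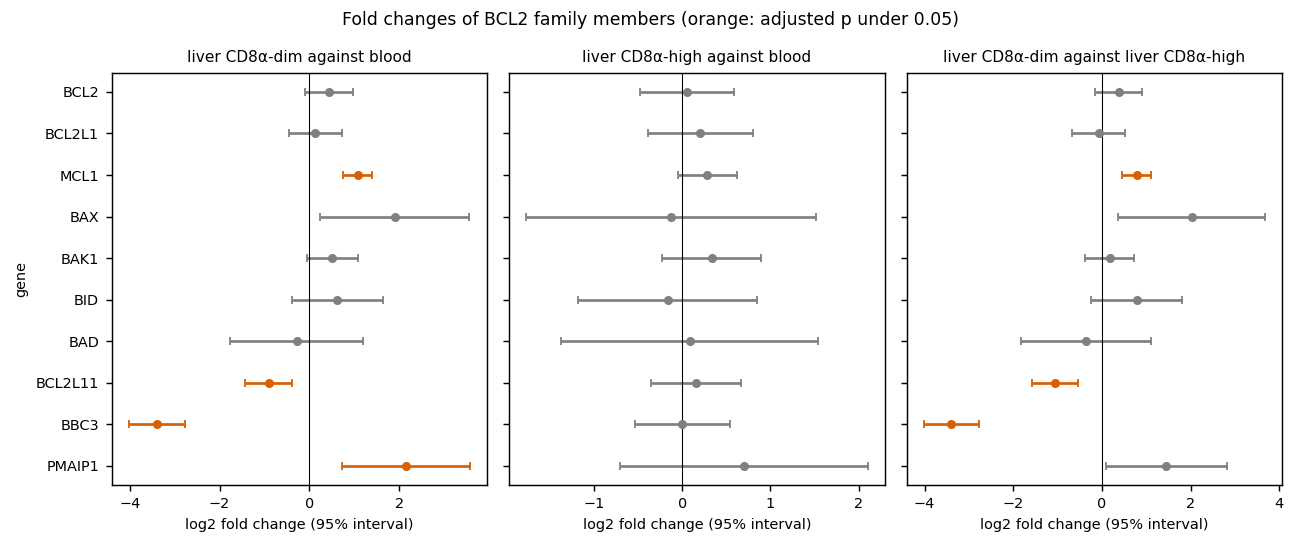
Log2 fold changes (x axis) of the 10 genes (y axis) in 3 comparisons, with 95% intervals from edgeR's fit of all 15 libraries. Orange marks an adjusted p under 0.05: *MCL1*, *BCL2L11*, *BBC3* and *PMAIP1* in the left panel, none in the middle and *MCL1*, *BCL2L11* and *BBC3* on the right.

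Counted over the list, 4 of the 10 members passed between lrNK cells and blood, 2 higher and 2 lower, where 18.2% of all genes tested passed, 8.62% higher and 9.60% lower. Groups that did not overlap were found for 2 members, *MCL1* and *BBC3*, against 13.5% of all genes. The median log2 fold change of the members was 0.47, beside 0.01 over all genes tested, and the median of its absolute size 0.76 beside 0.45. Between the 2 liver populations 3 of 10 passed, 1 higher and 2 lower in lrNK cells, where 14.6% of all genes passed (6.96% higher, 7.68% lower), and the same 3 had groups that did not overlap, against 11.9% of all genes. These comparisons share the lrNK libraries. Between liver CD8αhigh NK cells and blood, 0 of 10 members passed by edgeR, where 0.0640% of all genes passed (0.0457% higher, 0.0183% lower). By DESeq2, 0 members passed, where 24 genes did in all. An unadjusted p under 0.05 (edgeR) was found for 0 members, against 5.02% of all genes. Groups that did not overlap were found for 0 members, against 2.01% of all genes. The median log2 fold change of the members there was 0.12, beside -0.02 over all genes. With the pig as a block, the same 4, 0 and 3 members passed, where 19.4%, 0.0731% and 15.7% of all genes did.

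Ratios of opposing members within a library were taken from log2 CPM with a prior count of 2, as a description without a test. The log2 ratio of *BCL2* to *BCL2L11* was 0.22, 0.24, -0.17, 0.93 and 0.83 in blood of pigs 1 to 5 and 0.23, 0.39, 0.04, 0.40 and 0.52 in liver CD8αhigh NK cells. In lrNK cells it was 1.45, 0.72, 1.80, 2.10 and 2.51, higher than in blood in all 5 pigs and by 0.48 to 1.97. Only the lrNK library of pig 2 lay within the blood range. The log2 ratio of *BCL2* to *BBC3*, added after the values were seen, was 0.90 to 2.31 in blood, 1.09 to 2.02 in liver CD8αhigh and 3.75 to 6.75 in lrNK libraries, without overlap. As *BBC3* alone set the lrNK libraries apart, this is not a separate result. Ratios of guardians to thinly counted partners pointed elsewhere. *MCL1* over *PMAIP1* was lower in lrNK cells than in blood in all 5 pigs, with log2 ratios of 4.98 to 6.49 in blood of pigs 2 to 5 and 4.25 to 6.15 in lrNK cells. The ratio in blood of pig 1, where *PMAIP1* had 0 counts, is set by the prior count and is not given. *BCL2* over *BAX* was likewise lower in all 5 pigs, 5.92 to 7.63 in blood and 4.89 to 6.57 in lrNK cells. *BCL2L1* over *BAD* had no common direction, being higher in 3 of 5 pigs. These include pig 3, whose lrNK library had 0 *BAD* counts, so that its ratio is set by the prior count.

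**Figure D4:**
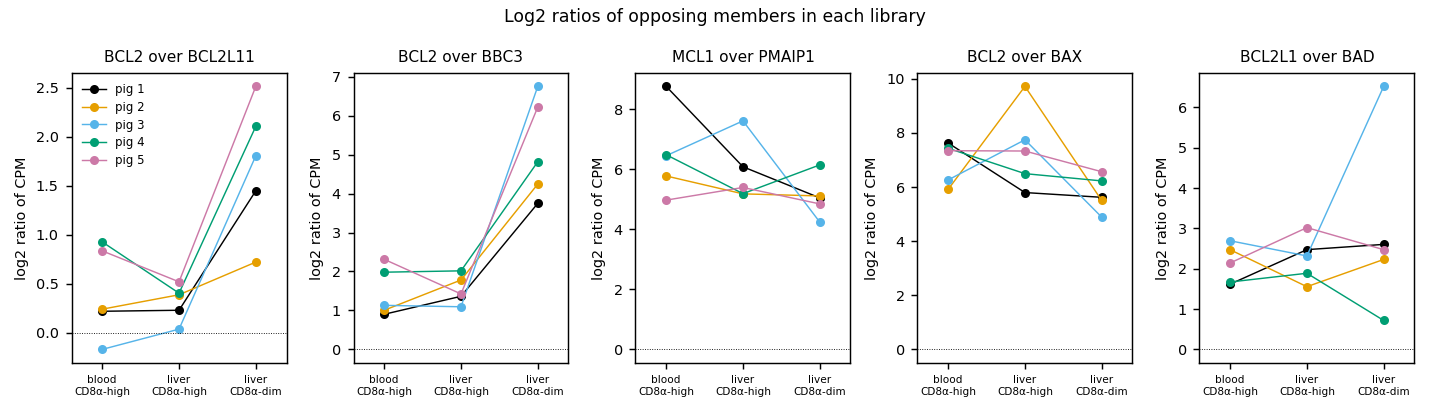
Log2 ratios of CPM (y axis, own scale per pair) of 5 pairs of opposing members in the 3 populations, one line per pig. *BCL2* over *BCL2L11* and *BCL2* over *BBC3* are higher in the liver CD8αdim libraries in each pig, while *MCL1* over *PMAIP1* and *BCL2* over *BAX* are lower there than in blood.

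Across the 15 libraries, log2 levels of *BCL2L11* and *BBC3* went together (Pearson's r = 0.77), and both ran against *MCL1* (r = -0.85 and -0.88). *PMAIP1*, also a BH3-only gene, instead went with *MCL1* (r = 0.77) and against *BBC3* (r = -0.74) and *BCL2L11* (r = -0.52). Other pairs of members are not given here. These are descriptions over libraries that share pigs and fall into populations, and the difference between populations was not removed from them. By the same measure, the genes most like *MCL1* were *PTGER3* (r = 0.96), *AGFG1* (r = 0.94) and *LOC102165642* (r = 0.94). Those most like *BCL2L11* were *LOC110260612* (r = 0.94), *LPAR5* (r = 0.92) and *LFNG* (r = 0.92). *BCL2* was most like *MPDZ* (r = 0.88), *LOC102161631* (r = 0.86) and *DIAPH2* (r = 0.85).

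Other genes of the pathway were followed in 4 lists with 57 genes, of which 54 had a row and 47 passed the filter. Between lrNK cells and blood 6 of the 47 rose and 3 fell, which is 9 of 47 where 18.2% of all genes passed, with a median log2 fold change of 0.20. None of the 47 passed between liver CD8αhigh NK cells and blood by edgeR or DESeq2 (which gave 8 of them no adjusted p), where 0.0640% of all genes passed by edgeR. An unadjusted p under 0.05 was found for 2 of the 47, *CASP8* and *MDM2*, where 5.02% of all genes had one, so this count is no more than the background. Between the 2 liver populations 3 of 47 rose and 4 fell in lrNK cells, where 14.6% of all genes passed (6.96% higher, 7.68% lower), a share close to that of the list.

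Of 13 further BCL2 family genes, 7 were tested, and 1 rose and 1 fell in lrNK cells, both against blood, where 18.2% of all genes passed, and against liver CD8αhigh NK cells, where 14.6% did. *BMF* encodes a BH3-only protein tied to the cytoskeleton. It reached 10.8, 16.7, 8.41, 5.78 and 16.7 CPM in blood, 18.6, 6.06, 11.2, 7.58 and 7.88 CPM in liver CD8αhigh NK cells and 49.8, 66.7, 146, 36.2 and 68.2 CPM in lrNK cells of pigs 1 to 5. All lrNK libraries were above all others, and the log2 fold change against blood was 2.64 (SE 0.40, edgeR, BH-adjusted p = 6.13e-05). *BNIP3L* encodes NIX, a mitochondrial protein known mainly for removing mitochondria by autophagy. It had 193, 204, 214, 213 and 231 CPM in blood, 137, 149, 187, 172 and 191 CPM in liver CD8αhigh NK cells and 60.6, 48.0, 37.0, 73.3 and 50.4 CPM in lrNK cells. The lrNK libraries were again apart from all others, with a log2 fold change of -1.96 (SE 0.18, edgeR, BH-adjusted p = 8.07e-08) against blood. Against liver CD8αhigh NK cells the log2 fold changes were 2.85 for *BMF* (BH-adjusted p = 3.38e-05) and -1.63 for *BNIP3L* (edgeR, BH-adjusted p = 1.08e-06). *BMF*, too, was highest in the lrNK library of pig 3, and *BNIP3L* lowest there.

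In the apoptosome and caspase list, 3 of 16 tested genes rose in lrNK cells against blood and 0 fell. Of all genes, 8.62% passed higher and 9.60% lower. *CASP8*, the initiator caspase of death receptors, had 71.5 to 112 CPM in blood and 126 to 211 CPM in lrNK cells (log2 fold change 0.75, edgeR, BH-adjusted p = 0.00465). *AIFM1*, a mitochondrial flavoprotein that can act on the nucleus in cell death, had 38.1 to 57.8 CPM in blood and 66.9 to 113 CPM in lrNK cells (log2 fold change 0.81, edgeR, BH-adjusted p = 0.0163). Against liver CD8αhigh NK cells 0 of the 16 passed by edgeR, beside 6.96% of all genes higher and 7.68% lower, and the log2 fold changes were 0.26 for *CASP8* and 0.39 for *AIFM1*. Among inhibitors and death receptor adaptors 1 of 8 tested genes rose and 0 fell against blood, beside the same 8.62% and 9.60%. This was *BIRC3*, which encodes cIAP2, a brake on death receptor signals, with 80.2 to 147 CPM in blood, 101 to 162 CPM in liver CD8αhigh NK cells and 213 to 313 CPM in lrNK cells. Its log2 fold change was 1.12 (BH-adjusted p = 1.29e-04) against blood and 0.85 (edgeR, BH-adjusted p = 0.00213) against liver CD8αhigh NK cells.

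Of 16 tested upstream regulators, 1 rose and 2 fell in lrNK cells against blood, a share close to the 18.2% of all genes that passed. Against liver CD8αhigh NK cells 1 rose and 3 fell, where 14.6% of all genes passed. *FOXO3*, a transcription factor known to induce *BCL2L11* and *BBC3* when growth factor signals are low, had 240.1 to 302 CPM in blood, 265 to 387 CPM in liver CD8αhigh NK cells and 119.9 to 225 CPM in lrNK cells. Its lrNK libraries were below all others, with log2 fold changes of -0.72 (BH-adjusted p = 0.00365) against blood and -0.92 (edgeR, BH-adjusted p = 4.83e-04) against liver CD8αhigh NK cells. *FOXO1*, of the same family, moved the other way, with log2 fold changes of 0.69 (BH-adjusted p = 0.0208) and 0.68 (edgeR, BH-adjusted p = 0.0258), although its lrNK range of 148 to 341 CPM overlapped that of blood, 117 to 167 CPM. *STAT5B*, which relays IL-2 and IL-15 signals, fell by 0.68 on the log2 scale against blood (BH-adjusted p = 0.00246) and by 0.46 against liver CD8αhigh NK cells (edgeR, BH-adjusted p = 0.0412). *FBXW7*, part of a ubiquitin ligase that targets MCL1, passed between the liver populations (log2 fold change -0.43, edgeR, BH-adjusted p = 0.0315), and had a log2 fold change of -0.32 against blood (BH-adjusted p = 0.101).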

How the data were processed

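RNA of 3 NK cell populations from 5 pigs was sequenced with QuantSeq 3′ mRNA libraries. The authors trimmed the reads with QuasR, aligned them to Sscrofa11.1 (HISAT2) and deposited whole-number counts of reads per gene, without normalization. The counting tool and its strand setting are not given in the sources used here. Library totals ran from 2003499 to 5680221, so genes with few counts are imprecise.

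Tests used edgeR 4.0.16 under R 4.3.3 (TMM, default filter with a minimum count of 10, quasi-likelihood test, Benjamini-Hochberg adjustment over 10939 genes), in a single fit of all 15 libraries. The standard error is the log2 fold change divided by the square root of F. Log2 CPM used a prior count of 2. Alternatives were DESeq2 1.42.0, its size factors in edgeR, no filter, the pig as a block, fits of 2 populations and leaving out each pig. Leaving out the lrNK library of pig 3 was added after the data were seen. Numbers in the labels name the animal. The pairing comes from these labels and the methods. Correlations of deviations from the population means were -0.0191 to 0.193 (mean 0.107) within pigs and -0.201 to 0.184 (mean -0.0265) between pigs, ranges that overlap. No 2 libraries of a population looked like the same library (chi-square per degree of freedom at least 9.41). Scripts were tested on simulated data. Loci come from a RefSeq table of Sscrofa11.1, which matched all 10 members. Figures used matplotlib 3.10.9.

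The members and lists were chosen with earlier results of these data known. Genes named beyond the 10 members were, per comparison, up to 8 genes of the 4 lists with the smallest adjusted p under 0.05, and the 3 genes most like *BCL2*, *MCL1* and *BCL2L11*. *MDM2*, *CASP8* in liver CD8αhigh NK cells against blood, *IL2RB* and the marker genes fall outside this rule. The first 3 were named after their values were seen. Sequences were not used here, and some genes of the lists are not reported here by name.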

Additional observations from a re-analysis of the deposited data

Results flagged for a closer look

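Each member was examined in each population for a library far from the other 4, by its gap to the nearest library as a share of the group's range (threshold 0.710 for 5 libraries). Of 30 groups, 2 passed, and chance alone gives about 1 in 20. *BAX* was 37.0 CPM in the lrNK library of pig 3, against 4.49 to 8.10 CPM in the other 4 lrNK libraries. *BID* was 1.95 CPM in that same library, against 23.9 to 26.1 CPM in the other 4.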

How the results depend on the processing

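*MCL1* and *BBC3* kept their direction and stayed past the threshold under all 11 alternatives in both lrNK comparisons, as did *BCL2L11* against liver CD8αhigh NK cells. With the pig as a replicate block, 4, 0 and 3 members were called (lrNK against blood, liver CD8αhigh against blood, lrNK against liver CD8αhigh), as without it, and no call of a member changed. Against blood, leaving out a pig gave 2 to 3 members called (2 without pig 1), since *PMAIP1* (lost without pig 1, 2, 3 or 4) or *BCL2L11* (without pig 1 or 5) missed the threshold. The same fits called 1472 to 1951 genes in all, against 1993 with all pigs. For liver CD8αhigh NK cells against blood, 7 genes were called in all, 24 by DESeq2, 18 without the filter, 16 in a fit of the 2 populations, 12 without the lrNK library of pig 3 and 0 to 8 with a pig left out. Between the liver populations, leaving out a pig gave 1051 to 1453 genes, fewest without pig 5 (1764 without only the lrNK library of pig 3), and 4 to 6 of the pathway genes, and the fit of 2 populations gave 4 pathway genes. The cause of these shifts was not tested. Every sign that turned belonged to a value that had not passed. For lrNK cells against blood they were *BCL2L1* (-0.18 to 0.29 with a pig left out, -0.14 without the lrNK library of pig 3) and *BAD* (-0.84 to 0.0012, and 0.039). For liver CD8αhigh NK cells against blood they were *BCL2* (-0.015 to 0.15), *BAX* (-0.82 to 0.47), *BID* (-0.35 to 0.029), *BAD* (-0.22 to 0.41) and *BBC3* (-0.14 to 0.16, and -2.0e-04 with DESeq2's size factors). Between the liver populations they were *BCL2L1* (-0.29 to 0.10, and -0.36 without the lrNK library of pig 3) and *BAK1* (-0.074 to 0.39). *BAX*, *BAD* and *PMAIP1* were thinly counted, each with a library of 0 counts, and the part of depth in this was not tested.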

Other observations

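*IL2RB*, the receptor chain through which IL-2 and IL-15 sustain NK cells, had 381 CPM in the lrNK library of pig 3, against 2503 to 5900.1 CPM in the other 4 lrNK libraries. Blood libraries had 1354 to 2596 CPM and liver CD8αhigh libraries 1697 to 2417 CPM. The gene did not pass the test between lrNK cells and blood. This library was chosen for mention after its values were seen.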
